A study of Ascaris suum with 62 samples.

Results

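In the pig roundworm *Ascaris suum*, 270 of 13765 windows of 20 kb carried CENP-A peaks at 0, 46 and 60 hours of embryo incubation and almost none at 5 days, at 7 days or in L1 larvae, the first larval stage. The windows were chosen from these same values. Cover is the percent of a window's length that lies inside called peaks, and a window was a member when its cover was at least 20% in each of the 0hr, 46hr and 60hr lists and under 5% in each of the 5day, 7day and L1 lists. Windows that touched a peak marked eliminated by the authors had been dropped beforehand, 593 of 14358, so the members are DNA that somatic cells keep as far as that mark goes. The members make up 5.36 of 272 Mb of window length, or 1.97%, and lie on 111 of 552 scaffolds. Testis and ovary lists played no role in the choice.

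CENP-A is the histone H3 variant that replaces H3 in centromeric nucleosomes and on which the kinetochore is built. *Ascaris* chromosomes are holocentric, so CENP-A lies at many places along each chromosome rather than at one centromere. In early cleavage, cells that will form the soma discard part of the genome while the germline keeps all of it, and chromosome fragments without kinetochores are left behind at mitosis.

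Chromatin immunoprecipitation of CENP-A, followed by sequencing of the bound DNA (ChIP-seq), was run in embryos of 0hr, 46hr, 60hr, 5day and 7day, in L1 larvae, and in tissue labelled testis1, testis2, testis3, ovary1, ovary2 and ovary3. The 0hr embryos were fertilised eggs taken from the last part of the uterus, and the other embryos were such eggs after incubation. No treatment was applied, no strain is given, and the meaning of the gonad numbers is not labelled. For each stage there was 1 peak list with read counts per peak in 2 libraries, 1 single-end and 1 paired-end, so cover is 1 value per list with no error of its own. Nothing says that the 2 libraries came from separate animals or cultures, and p-values between stages then measure only the spread between libraries, which may be technical. In pooled embryos, fewer cells with CENP-A at a site and less CENP-A per cell cannot be told apart. A cover of 0 means that no peak was called, not that CENP-A was absent.

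The 12 lists held 163819 peaks, and a library had 1005578 to 14901685 reads in them. The 2 libraries of testis3 stood apart. Their counts per peak differed with a chi-square per degree of freedom of 70.6, against 1.09 to 8.08 in the 11 other lists, so counts and tests over gonad lists are also given without it, a choice made after the data were seen. All windows had a median cover of 0% in each late list (5day, 7day and L1), and at 0hr, 46hr and 60hr it was 14.0%, 9.70% and 8.16%. The members are set beside 2507 windows with at least 20% cover in all 6 embryo and L1 lists, called kept windows here. Of the 3894 windows with at least 20% cover in the 3 hour lists, 270 (6.93%) were members, 2507 (64.4%) were kept, and 1117 (28.7%) lay between.

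Member windows were moderately covered in the hour lists rather than filled with CENP-A. At 0hr, 46hr and 60hr their median cover was 45.1%, 38.8% and 33.6%. The medians of kept windows were 49.1%, 57.1% and 62.9% at the same times. All 3 hour lists reached 50% cover in 26 members (9.63%) and in 966 kept windows (38.5%). The member with the highest mean over the hour lists, on scaffold 30 from 1360001 to 1380000, had 66.9%, 89.0% and 83.9% at those times and 0% in the late lists. These levels are what the rule selected on and carry no test.

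In the late lists 219 of the 270 members held no peak at all. Some late cover was left in 51, of which 38 had it in 1 list, 10 in 2 lists and 3 in all 3. Members held 13 peaks at 5day, 19 at 7day and 9 in L1, with median widths of 747, 751 and 729.5 bp, and the ceiling of the rule leaves room only for narrow peaks. Shares of reads were taken over the reads in peaks that fell in the 13765 windows. Members took 4.29% and 4.27% of these in the 2 0hr libraries (95% Wilson intervals of 4.27 to 4.31 and 4.25 to 4.29). They took 3.72% and 3.68% at 46hr, and 2.95% and 2.97% at 60hr. Reads in peaks outside the windows were left out, and these were more at 0hr than at 60hr. The rep1 library of 0hr had 3558305 of 4118697 reads inside the windows, and that of 60hr 3181200 of 3217957. The share was 0.0243% and 0.0217% at 5day, 0.0269% and 0.0275% at 7day, and 0.0112% and 0.00884% in L1. These shares follow from the choice of members, and the intervals cover counting error only.

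**Figure D1:**
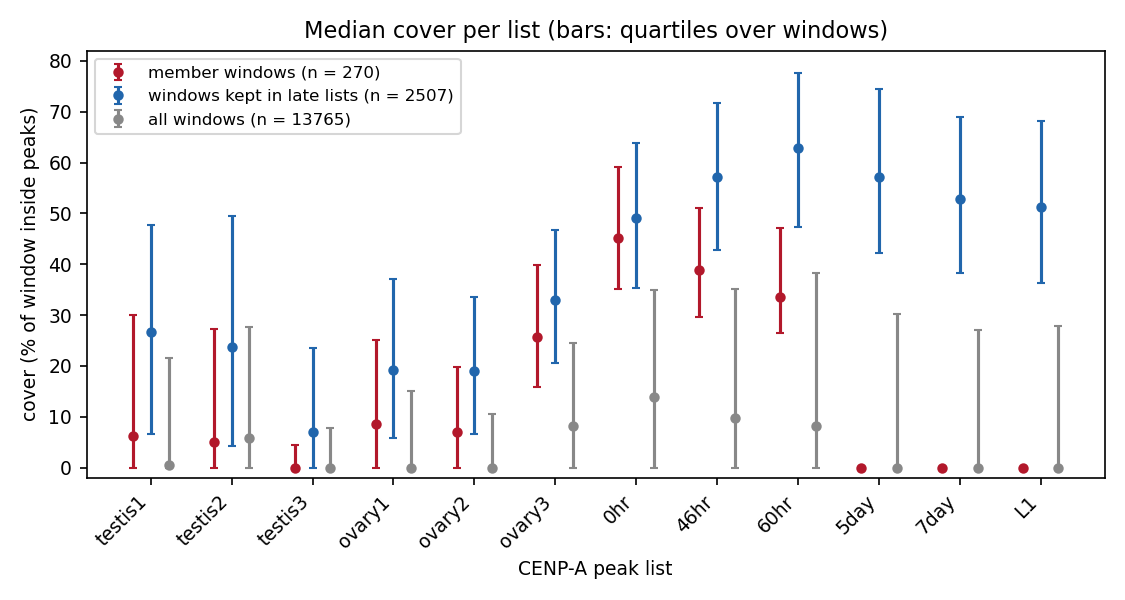
Median cover (percent of window inside peaks) in each of the 12 lists for member windows, kept windows and all windows; bars run between the quartiles over windows. Members reach medians of 45.1%, 38.8% and 33.6% at 0hr, 46hr and 60hr, lie at 0% in the late lists, and have their highest gonad median, 25.6%, in ovary3.

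The label "only in cleavage stages" did not hold once the gonads were included. At least 1 gonad list covered 20% or more of 221 members (81.9%), against 91.8% of kept windows and 52.1% of all windows. Without ovary3 the member share was 56.3%, and without testis3 it stayed at 81.9%. Only 5 members had no gonad peak of any kind, and 6 had under 5% cover in all 6 gonad lists.

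Among gonad lists, ovary3 covered members most. Its median cover over members was 25.6% (quartiles 15.8% and 39.8%). The other lists had medians of 6.17% in testis1, 5.11% in testis2, 0% in testis3, 8.62% in ovary1 and 6.91% in ovary2. Ovary3 reached 20% in 177 members (65.6%), against 76.0% of kept windows and 30.6% of all windows. The numbers of members at 20% or more were 93 in testis1, 88 in testis2, 23 in testis3, 88 in ovary1 and 65 in ovary2. No peak at all fell in 15 members in ovary3, against 97 to 192 members in the 5 other gonad lists. Within the windows ovary3 also has the longest cover of the ovary lists, 40.8 Mb against 27.9 Mb in ovary1 and 21.1 Mb in ovary2. Its rank was therefore also read relative to that length. Members held 3.70% of the length that ovary3 covered within the windows, which is 1.88 times their share of window length. The same ratio was 1.18 in testis1, 0.995 in testis2, 0.693 in testis3, 1.46 in ovary1 and 1.49 in ovary2, against 2.23, 2.03 and 1.78 in the 0hr, 46hr and 60hr lists. On that scale the 3 ovary lists lay between the testis lists and 0hr. Ovary3 also had the most reads in peaks of the ovary lists, 6421577 and 7971186 in its libraries. The numbers were 3172504 and 1656017 in ovary1, and 1484418 and 1866565 in ovary2. Whether the rank of ovary3 follows from these reads was not tested.

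The members differed widely among themselves in the gonads. Of the 270, 49 had no gonad list at 20% or more, 88 had 1, 44 had 2, 36 had 3, 24 had 4, 20 had 5 and 9 had all 6. Over the 5 lists without testis3 the numbers were 49 with none, then 88, 46, 41, 22 and 24 with 1 to 5. Ovary3 was the sole gonad list in 69 of the 88, or 25.6% of members, against 11.8% of kept windows and 7.86% of all windows. At least 1 testis and at least 1 ovary list reached 20% in 109 members (40.4%, against 64.7% of kept windows and 26.3% of all windows). Ovary lists without a testis list did so in 98 members (36.3%, against 20.8% and 11.9%), and testis lists without an ovary list in 14 (5.19%, against 6.38% and 13.8%). Without testis3 these 3 member counts were also 109, 98 and 14. These shares are descriptions, since windows on a scaffold are not independent of each other.

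**Figure D2:**
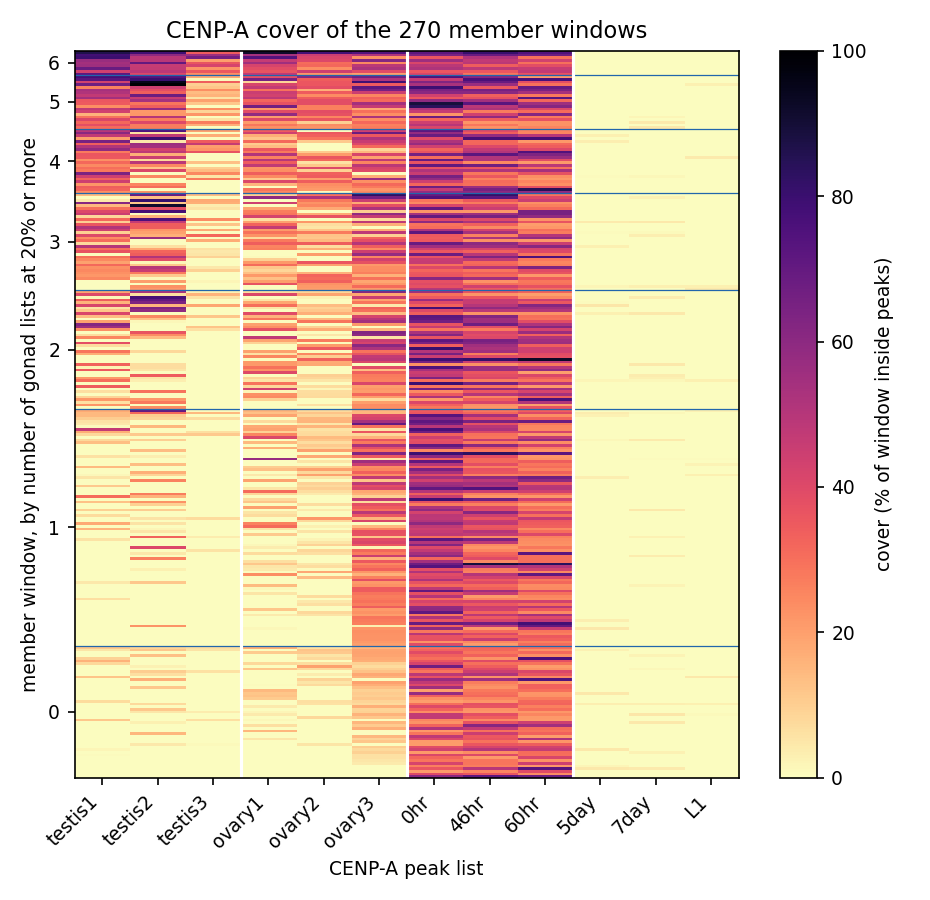
Cover (colour, percent of window inside peaks) of each of the 270 member windows (rows, grouped by the number of gonad lists at 20% or more, 6 at the top and 0 at the bottom) in the 12 peak lists (columns). The ovary3 column is coloured in most rows, the testis columns mainly in the upper rows, and the 3 late columns are close to 0 throughout, as the rule requires.

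The windows at the upper end were covered in gonads as well as in early embryos, by a mean over 6 lists that includes testis3. The highest mean belonged to scaffold 17 from 2940001 to 2960000. Its cover was 86.0% in testis1, 78.5% in testis2, 34.6% in testis3, 92.1% in ovary1, 78.0% in ovary2 and 74.2% in ovary3. At 0hr, 46hr and 60hr it was 71.7%, 80.8% and 74.5%, and no late list had a peak there. In that window each gonad list but testis3 had more cover than the lowest hour list. The window on scaffold 57 from 1540001 to 1560000 was the most even over the gonad lists among the 5 named here. It had 78.4%, 59.6% and 56.0% in the 3 testis lists, 53.7%, 44.995% and 51.6% in the 3 ovary lists, and 64.6%, 68.9% and 67.7% in the 3 hour lists. On scaffold 44 from 1020001 to 1040000 the testis lists had 80.04%, 49.4% and 66.2%, the ovary lists 74.1%, 41.8% and 23.1%, and the hour lists averaged 38.8%. Testis3 fell out of step in the last 2 named windows, with 17.8% on scaffold 29 from 1160001 to 1180000, where the 5 other gonad lists had 38.1% to 77.3%. In the window on scaffold 11 from 1500001 to 1520000 it had 0.900%, against 34.3% to 80.3% in the 5 others. In all, a gonad list had more cover than every hour list in 57 members.

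At the lower end stood the 5 members with no peak in any gonad list. The window on scaffold 186 from 80001 to 100000 had 60.4%, 71.5% and 67.7% cover at the 3 hour points and no late peak either. It had the most hour cover of the 3 members without a peak in any gonad or late list. The window on scaffold 1 from 3620001 to 3640000 had 35.9%, 48.8% and 73.4% at the 3 hour points, and small late peaks covering 4.61% at 5day and 4.13% at 7day. The 3 others had lower cover, at 39.6%, 36.2% and 23.8% on scaffold 59 from 380001 to 400000, at 20.8%, 25.5% and 39.2% on scaffold 33 from 420001 to 440000, and at 26.8%, 27.03% and 21.7% on scaffold 1 from 3140001 to 3160000. The last of these also had 1.85% cover at 5day.

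Testis and ovary were compared by limma on cover per window, 3 lists against 3, over all 10721 windows with a mean gonad cover of at least 1%. None of the 263 members that passed this filter was called after Benjamini-Hochberg adjustment, and 0% of all windows was. At an unadjusted p under 0.05, 18 members (6.84%) and 6.36% of all windows passed. The median difference, testis minus ovary, was -7.16 percentage points over members, -3.27 over kept windows and 1.06 over all windows tested. All 3 testis lists lay below all 3 ovary lists in 31 members (11.8%), against 6.04% of all windows, and above them in 2 members (0.760%), against 6.42%. An edgeR quasi-likelihood test on reads in peaks of the same lists called 0 members and 5 windows in all, and at an unadjusted p under 0.05 it had 42 of 265 members (15.8%), against 6.17% of 11426 windows. Without ovary1, limma called 3 windows in all, and without testis3 7. Without testis3, 12 of 264 members (4.55%) had an unadjusted p under 0.05, against 9.82% of 10891 windows, and the median difference was -4.14 percentage points over members, 1.01 over kept windows and 3.25 over all windows. The 2 testis lists then lay below the 3 ovary lists in 31 members (11.7%), against 6.25% of all windows, and above them in 23 (8.71%), against 19%. The sign of the median of kept windows thus rested on testis3. The share of members with testis above ovary was below that of all windows with testis3 and without it. No member can thus be said to differ between the tissues. The mean was higher in testis in 72 members (26.7%), against 40.8% of kept windows and 44.0% of all 13765 windows. It was higher in ovary in 193 (71.5%), against 58.9% and 39.9%. Without testis3 it was higher in testis in 105 members (38.9%), against 52.1% and 48.1%, and in ovary in 160 (59.3%), against 47.6% and 35.0%. The numbers 1 to 3 rank or pair nothing that the labels state, so each gonad list stands for itself.

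Gonad peaks in members lay largely at the bases where the hour peaks lie. Of the bases in ovary3 peaks within members, 85.1%, 74.3% and 62.3% were in peaks of 0hr, 46hr and 60hr. These lists covered 47.2%, 41.5% and 38.6% of the members' length. For ovary2 the shares were 85.9%, 80.1% and 70.8%. The testis lists and ovary1 overlapped 0hr peaks less, at 67.0% in testis1, 61.6% in testis2, 64.4% in testis3 and 68.9% in ovary1. The kept windows had nearly the same shares in 0hr peaks, 85.4% for ovary3, 86.0% for ovary2 and 61.0% to 70.7% for the 4 other gonad lists. In kept windows 85.1% of ovary3 bases were in 60hr peaks, which cover 62.5% of those windows. Relative to the cover of 60hr, the overlap of ovary3 was 1.61 times in members and 1.36 times in kept windows. The highest value such a ratio can take falls as cover rises, so these 2 do not rank the sets. Across the 270 members the cover of ovary3 correlated with that of 0hr at r = 0.606 (rho = 0.600), with 46hr at r = 0.473 and with 60hr at r = 0.142. Over the 2507 kept windows the same correlations were 0.716, 0.495 and 0.316. The windows within a list share its libraries and its calling threshold, so these values describe the lists only.

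Peaks in members overlapped only in part between the hour points. Of 3346 kb inside a peak of any hour list, 1208 kb (36.1%) were inside peaks of all 3, against 49.7% in kept windows. Of the bases in 0hr peaks 66.8% were in 46hr peaks and 57.8% in 60hr peaks, against 81.2% and 81.4% in kept windows, where these lists cover more. Divided by the cover of the later list, the overlaps were 1.61 and 1.496 times in members, against 1.41 and 1.30 times in kept windows. The higher cover of kept windows lowers the most that this ratio can reach there. Even so, 265 members had at least 1 base inside peaks of all 3 hour lists, and the stretch common to all 3 had a median of 21.1% of the window. In 5 members no base was shared by the 3 lists, so those windows qualified through different peaks at different times. The read density of peaks in members was close to that of other peaks. Their median reads per kb in members was 0.996 and 1.01 times the median of the whole list in the 2 libraries of 0hr, 0.988 and 0.964 times at 46hr, and 0.912 and 0.918 times at 60hr. Peaks in members, counted as for the late lists, numbered 763, 760 and 689 in the 0hr, 46hr and 60hr lists. Their median widths were 2484.5, 2188 and 2220 bp, against 1897.5, 1993 and 2372 bp over the lists' retained peaks.

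The reads in peaks allow the 3 hour points to be compared with each other. The rule set the same floor in the 3 lists, but the reads lie in the very peaks whose cover chose the members, and kept windows were chosen for high late cover. The counts over members are therefore descriptions of the chosen windows and support nothing beyond them. In most members CENP-A signal was already lower at 60hr than at 0hr. The 2 libraries of 60hr were both below the 2 of 0hr in 196 members, both above in 61, and overlapped in 13. This count was made for members only, so it is no trait of members. By edgeR, 51.7% of all windows tested were called lower at 60hr. The median over members was 93.7 and 95.1 CPM (reads scaled to a common library total, with TMM factors) in the 60hr libraries, against 147 and 150 CPM in the 0hr libraries, with 126 and 124 CPM at 46hr between them. edgeR's quasi-likelihood test was fitted on the 6 hour libraries over 10533 windows with at least 60 reads, with Benjamini-Hochberg adjustment over all of them. The filter kept all 270 members, as the rule makes likely.

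For 60hr against 0hr, edgeR called 189 members lower (70%), against 51.7% of all windows, and 54 higher (20%), against 37.7%. The remaining 27 were not called. The median log2 fold change was -0.58 over members, -0.25 over all windows and 0.36 over kept windows, of which 19.6% were called lower and 63.3% higher. Most of all windows tested were called one way or the other, so the counts are read with the sizes. For 60hr against 46hr, 185 members were lower (68.5%), against 36.6% of all windows, and 35 were higher (13.0%), against 30.7%, with medians of -0.38 over members and 0 over all windows. The earlier step was smaller in this fit. For 46hr against 0hr, 140 members were lower (51.9%), against 46.9% of all windows, and 67 were higher (24.8%), against 37.4%, with medians of -0.18 over members and -0.10 over all windows. This step depended on the tool and the scaling. DESeq2 called 38 members higher and 153 lower, among 8277 windows called in all. edgeR with DESeq2 size factors called 47 higher and 172 lower, among 8929, with the median of all windows at -0.24. The member medians of this step were then -0.33 and -0.32, and those of 60hr against 46hr were -0.29 and -0.30. The later step was thus the smaller under these 2 settings. Over both steps, 107 members were called lower at both steps, 45 were called lower after 46hr alone, and 33 were first higher and then lower. Another 14 were higher at both steps, and 11 were called at neither. These step counts were made for members only, with no share of all windows beside them.

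The hour lists were not equally close to the late lists on which the rule also rests. Over all windows, mean late cover correlated with cover at 60hr (r = 0.818) more than at 46hr (r = 0.746) or 0hr (r = 0.538), and the rule asks for low late cover. Whether the lower 60hr signal of members follows from that choice was not tested.

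**Figure D3:**
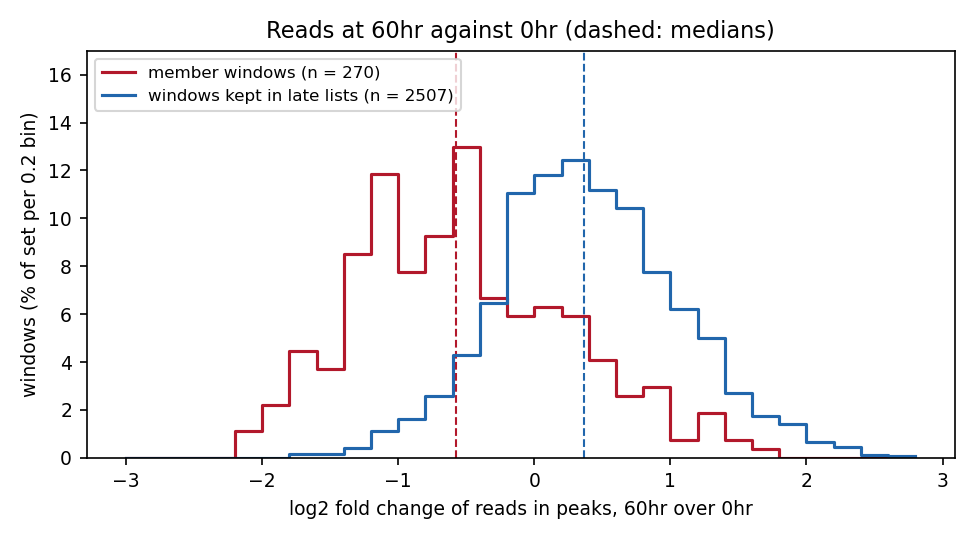
Distribution of the log2 fold change of reads in peaks, 60hr over 0hr, for the 270 member windows and the 2507 kept windows, as percent of each set per bin of 0.2; dashed lines mark the medians, -0.58 and 0.36. The members spread on both sides of 0, with the larger part below it.

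The 5 windows at each end, named by size of change among those called, show how far members differed. They were picked by this change, from reads in peaks that the rule used. The adjusted p-values printed for them, for falls and for gains, therefore measure only the spread between libraries and add no support. The strongest fall was on scaffold 75 from 940001 to 960000, though with each peak given whole to the window of its midpoint it was the smallest of the 5, at a log2 fold change of -1.17. Its libraries held 56.1 and 52.2 CPM at 60hr, against 239 and 236 CPM at 0hr, with 170 and 166 CPM at 46hr (176 and 321 reads at 60hr, against 873 and 888 at 0hr). The log2 fold change of 60hr over 0hr was -2.14 (SE 0.0797, edgeR adjusted p = 6.85e-19), with most of it after 46hr, at -1.65 for 60hr over 46hr. Cover there was 73.2%, 54.2% and 23.5% at the 3 hour points and 2.61% at 5day. Scaffold 17 from 1060001 to 1080000 behaved alike, with 63.1 and 61.1 CPM at 60hr, against 255 and 269 CPM at 0hr, a log2 fold change of -2.08. The third, on scaffold 29 from 1160001 to 1180000, is also among the most covered in gonads, and had 75.9 and 62.9 CPM at 60hr, against 282 and 286 CPM at 0hr, a log2 fold change of -2.06. In the remaining pair the larger part of the fall, or nearly as much of it, came before 46hr. Scaffold 30 from 1680001 to 1700000 had 47.8 and 54.5 CPM at 60hr, against 204 and 179 CPM at 0hr, and was already at 88.4 and 79.3 CPM at 46hr. Scaffold 69 from 940001 to 960000 had 48.8 and 51.0 CPM at 60hr, against 187 and 191 CPM at 0hr, with log2 steps of -0.89 to 46hr and -1.02 after it. In all 5 windows both 60hr libraries lay below both 0hr libraries.

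Members at the opposite end gained signal up to 60hr and still had no late peak. The largest gain was on scaffold 5 from 3860001 to 3880000 (with whole peaks by midpoint, scaffold 74 had 2.09 and scaffold 5 had 1.94). It had 227 and 208 CPM at 60hr, against 68.3 and 67.1 CPM at 0hr, and 110 and 98.2 CPM at 46hr. The log2 fold change of 60hr over 0hr was 1.68 (SE 0.0841, edgeR adjusted p = 3.35e-16). Cover there was 21.2%, 34.3% and 76.4% at the 3 hour points, and 0% in all 3 late lists. Scaffold 122 from 120001 to 140000 (log2 fold change 1.52) and scaffold 17 from 800001 to 820000 (1.38) gained at both steps. Scaffold 74 from 1120001 to 1140000 (1.49) and scaffold 194 from 220001 to 240000 (1.36) gained after 46hr, and edgeR did not call them for 46hr against 0hr (adjusted p = 0.727 and 0.325). Scaffold 74 had 198 and 198 CPM at 60hr, against 71.0 and 70.1 CPM at 0hr, and 71.7 and 73.3 CPM at 46hr. The 5 windows had 61.9% to 76.4% cover at 60hr and between 21.2% and 36.4% at 0hr, and all 5 had 0% in each late list, where the rule allows under 5%.

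Members grouped by gonad pattern had unlike medians of change. Over all windows tested the median log2 fold change of 60hr over 0hr was -0.25, with 51.7% called lower and 37.7% higher. The 69 members covered in ovary3 alone had a median of -0.94, with 58 called lower (84.1%) and 6 higher (8.70%). The 29 with other ovary lists and no testis list had -0.83, with 25 lower (86.2%) and 2 higher (6.90%). The 109 with both tissues had -0.46, with 70 lower (64.2%) and 27 higher (24.8%). The 14 with testis lists alone had -0.30, with 10 lower (71.4%) and 3 higher (21.4%). The 49 with no gonad list at 20% had -0.24, with 26 lower (53.1%) and 16 higher (32.7%). These 49 were thus near the values of all windows. Their starting levels differed as well, since the median 0hr cover was 51.3% for ovary3 alone and 34.7% for no gonad list, while 60hr medians were 30.8% and 30.4%. The groups were described after their values were seen and were not tested against each other.

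Most members stood alone. They formed 252 runs of adjacent windows, of which 236 were a single window, 14 were 2 windows and 2 were 3 windows long. Mean late cover was 0.234% in members, 10.0% and 11.5% in the windows 20 kb before and after, 17.5% and 17.8% at 40 kb, and 23.4% and 22.8% at 100 kb, where it was above the means over all windows of 16.4% to 17.8%. The rule fixes the value in the member itself, so a low centre says nothing. Around the 6331 other windows with under 5% in all late lists, late cover was 8.82% and 8.86% at 20 kb, 16.2% and 16.4% at 40 kb, and 18.5% and 18.6% at 100 kb. Cover at 0hr, also set by the rule in the member, was 47.2% there, against 25.01% and 23.6% in the adjacent windows. Kept windows had 55.5% late cover, and 30.2% and 30.3% at 20 kb. Of 264 windows just before a member 41 (15.5%) had at least 20% in all 3 late lists, and of 262 just after 45 (17.2%) did, against 13.3% on both sides of the other low-late windows and 47.5% of kept windows. The nearest late peak lay within 20 kb of 192 members (71.1%), against 60.6% of the other low-late windows and 81.3% of all windows. The median distances were 8.13, 13.6 and 0 kb. The greatest distance from a member was 187 kb, and 5 members lay on scaffolds with no late peak.

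**Figure D4:**
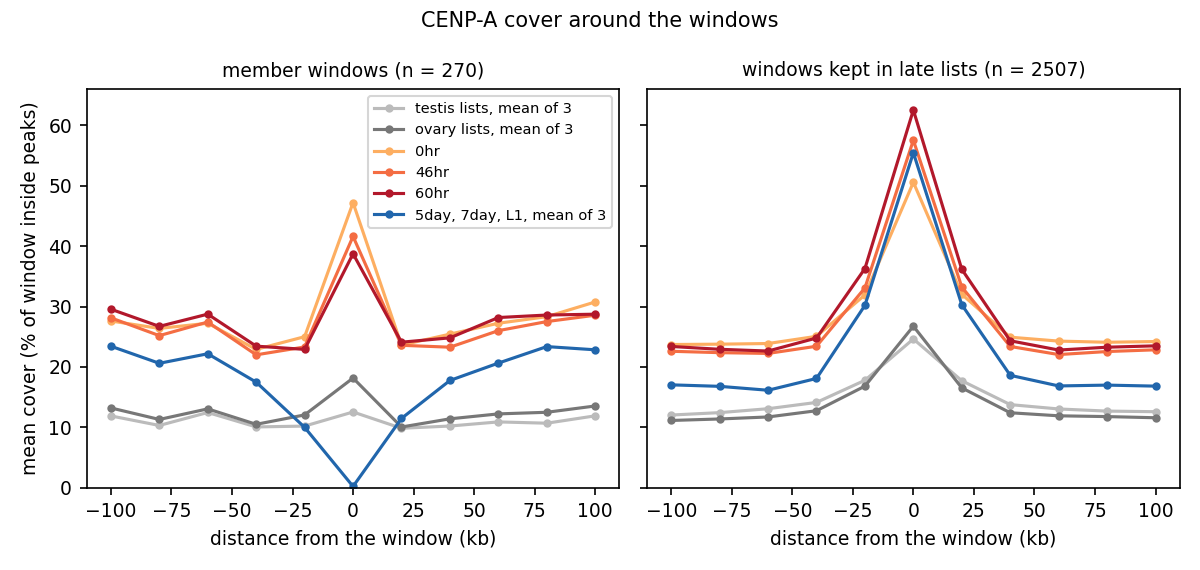
Mean cover (percent of window inside peaks) at distances of up to 100 kb from member windows (left) and kept windows (right), by list or mean of lists. Around members the late mean drops to 0.234% and returns to 23.4% and 22.8% at 100 kb, while the hour lists are highest at the window itself; the rule sets the hour and late values at distance 0.

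Of the 16 runs longer than a window, 10 were named by length and then by hour cover. On scaffold 14, 3 members in a row span 1880001 to 1940000, with mean cover of 52.1%, 53.5% and 48.5% at the 3 hour points and no late peak. The last late peak before this run ended 55.7 kb away, and the next began 30.0 kb after it. In the gonads it had 37.0% in testis1, 49.8% in ovary3, 16.2% in ovary1, 7.59% in ovary2, and no peak in testis2 or testis3. The other run of 3, on scaffold 11 from 1480001 to 1540000, is bordered closely by late peaks, at 1.78 kb before and 1.98 kb after, and 1 late peak touches it. It had 37.0%, 52.4% and 51.5% at the hour points, and 57.8% in testis2, the highest of its gonad lists. On scaffold 17 the run from 2940001 to 2980000 had the highest hour cover of the 10 named, at 55.5%, 79.0% and 76.1%, and its gonad lists covered 17.3% (testis3) to 79.2% (testis2). The next late peak began 9.62 kb after this run, and the last one before it ended 27.1 kb away.

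**Figure D5:**
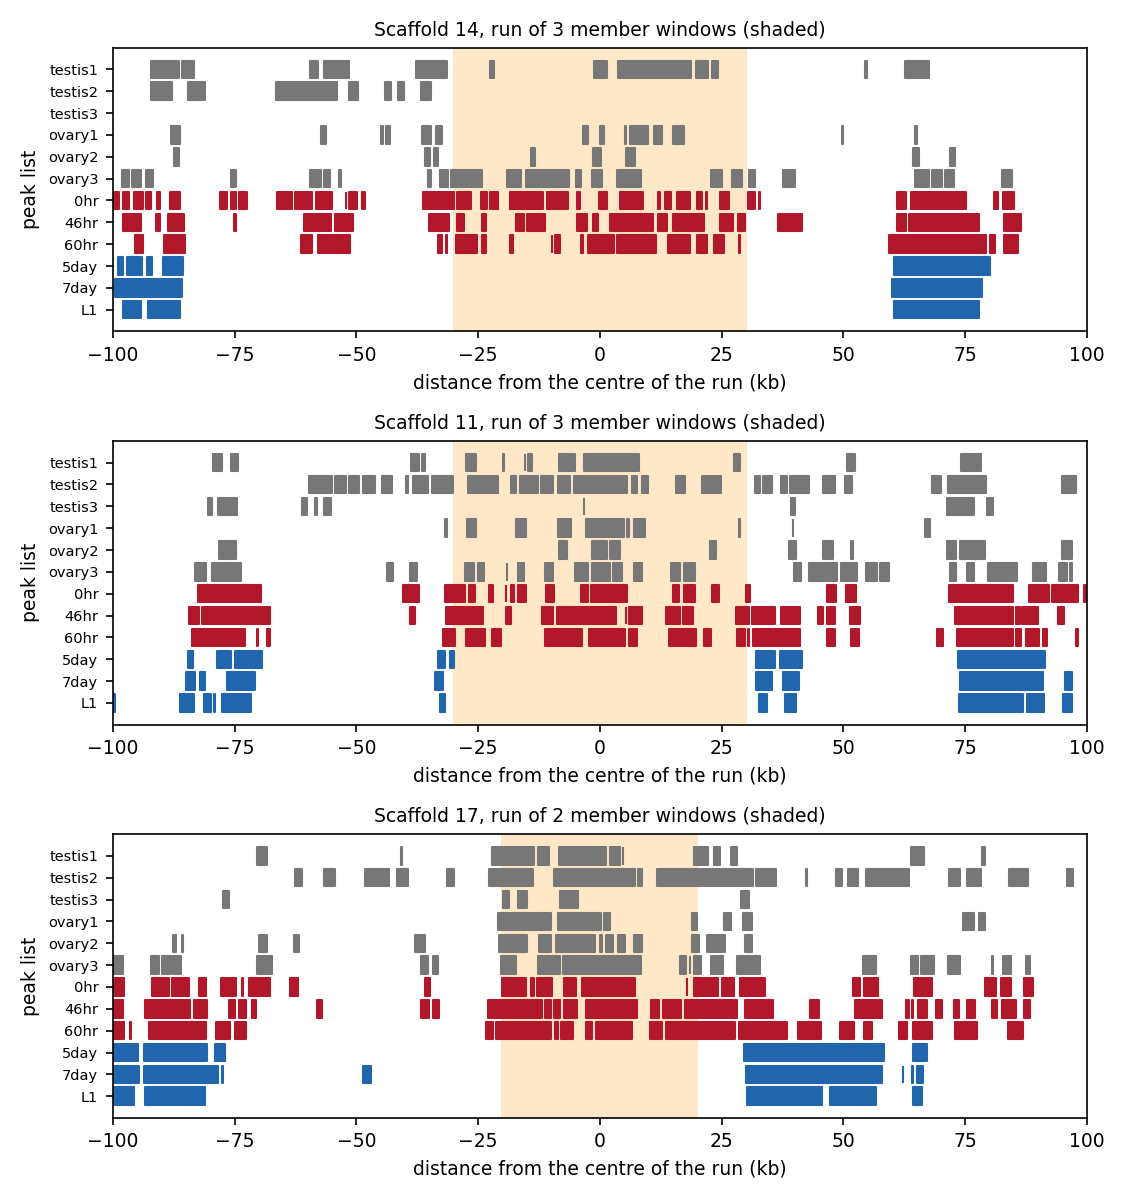
Peaks of each list (bars) within 100 kb of the centre of 3 runs of member windows (shaded), on scaffolds 14, 11 and 17; grey for gonads, red for 0hr, 46hr and 60hr, blue for 5day, 7day and L1. The blue rows are empty or nearly so inside the shading and resume outside it, at 30.0 kb, 1.98 kb and 9.62 kb after the run.

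Among the other named runs, 3 had little testis cover. The run on scaffold 2 from 2100001 to 2140000 had no testis peak in any list, 21.2% in ovary1, 17.3% in ovary2 and 38.4% in ovary3, and hour cover of 53.2%, 57.4% and 54.5%. The run on scaffold 41 from 280001 to 320000 had 38.1% in ovary3, at most 2.84% in a testis list and at most 7.75% in the 2 other ovary lists, with late peaks 73.3 kb before and 90.7 kb after. On scaffold 72 the run from 900001 to 940000 had 12.9% in testis2, no peak in the 2 other testis lists, 19.5% in ovary3 and 68.6% at 60hr. The runs on scaffold 22 from 1900001 to 1940000 and scaffold 14 from 1400001 to 1440000 had 0% and 2.27% in testis3, but 33.2% and 16.1% in testis2 and 32.7% and 45.8% in ovary3. The runs on scaffold 75 from 180001 to 220000 and scaffold 29 from 1160001 to 1200000 were covered in all 6 gonad lists, at 11.4% to 31.3% and at 17.6% to 60.9%. On scaffold 29 hour cover was 64.2%, 52.3% and 25.7%, the lowest at 60hr of the 10 runs.

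Members were scattered over the assembly. Scaffold 2 had 17 of its 341 windows among them (4.99%), scaffold 1 had 14 of 390 (3.59%), scaffold 5 had 8 of 260 (3.08%), and scaffold 75 had 8 of 63 (12.7%). Of 85 scaffolds with at least 50 windows, 17 had no member. Scaffolds of at least 1 Mb held 221 members (2.23% of their windows) and shorter ones 49 (1.27%). Near eliminated DNA members were few, with 3 (1.11%) within 100 kb of a peak marked eliminated, against 3.27% of the other windows with low late cover and 2.46% of all windows. Yet 54 members (20%) lay on scaffolds that carry such a peak, against 15.3% in both of these sets. At scaffold ends stood 9 members (3.33%), against 6.81% and 6.25%.

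The limits of the rule did not fall in a gap of the values. Just inside the 20% floor were windows on scaffold 27 from 2040001 (20.1% in its lowest hour list), scaffold 4 from 920001 (20.2%) and scaffold 31 from 220001 (20.2%). Just outside were windows on scaffold 74 from 1100001 (19.975%), scaffold 124 from 240001 (19.96%) and scaffold 12 from 1480001 (19.85%). The first of these outside windows had 40.0% at 46hr and 60.1% at 60hr, no late peak, and lies next to the named window on scaffold 74. At the 5% ceiling the nearest inside were scaffold 6 from 1920001 (4.84% in its highest late list), scaffold 27 from 720001 (4.79%) and scaffold 89 from 720001 (4.67%). Nearest outside were scaffold 12 from 1700001 (5.07%), scaffold 243 from 20001 (5.10%) and scaffold 101 from 680001 (5.13%). With peaks of at least their list's median read density 168 windows met the rule, of which 53 were among the 270.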

How the data were processed

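The deposited tables were used for 24 CENP-A ChIP-seq libraries of the 62 samples in the series, and input, CENP-C and histone mark libraries were not analysed here. Per the file headers, a table row holds the scaffold, start and end of a peak, whether it is retained or eliminated, and its coverage in rep1 and rep2. These deposited values are whole-number counts of reads per peak, not normalized. They differ in total between columns. The submitters' processing notes name Bowtie2 and MACS2, whose versions and settings are not given in the sources used here. It is not stated which of them is single-end, how input was used, or whether starts count from 0 or 1. Coordinates are the authors', on their own scaffolds, and window starts are printed counting from 1. The genome sequence and gene annotation were not used here, so windows are named by position only and no sequence is shown.

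Scaffolds were divided from position 0 to the last peak end over the 12 lists, and end windows under 5 kb were dropped. For edgeR the reads of a peak were split over windows by overlap and rounded, with TMM scaling, and windows with at least 60 reads over 6 libraries were tested at an adjusted p of 0.05. limma used trend and robust moderation. Read density was taken over peaks of at least 200 bp. Exact permutation tests of 3 lists against 3 cannot go below 0.1 and were not used. Named regions are the 10 longest runs (equal lengths ordered by mean cover over the hour lists, so 6 other runs of 40 kb are not named), 5 members at each end of gonad cover, 5 at each end of the called 60hr over 0hr changes, and 3 on each side of each limit. The members, lists and groupings were chosen with earlier results of these data known. The code of the tests was run on simulated data with planted changes and simpler noise, which says nothing of error rates in these data. Python 3.11.15, numpy 2.4.6, pandas 2.3.3, SciPy 1.17.1, matplotlib 3.10.9, R 4.3.3, edgeR 4.0.16, limma 3.58.1 and DESeq2 1.42.0 were used.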

Additional observations from a re-analysis of the deposited data

How the results depend on the processing

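The rule decides how many members there are. Their number was 410 with a 15% floor, 130 with a 30% floor, 411 with a 10% ceiling, 778 in windows of 10 kb and 168 with peaks of at least the median read density of their list. It was 219 with no late peak allowed, 285 with windows shifted by 10 kb and 300 with windows touching eliminated peaks kept. The share with a gonad list at 20% or more was 75.1% with the 15% floor, 90.8% with the 30% floor and 75.1% with the shift, and 56.3% to 81.9% with each gonad list left out in turn, an alternative chosen after the data were seen. The share covered by ovary3 was 56.8%, 76.9% and 56.5% under the same 3 settings and 59.5% with the denser peaks.

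For 46hr against 0hr, DESeq2 called 38 members higher. In 120 refits of the 10 named windows, the direction and the call of 60hr over 0hr were the same, but not the size or the order. With each peak given whole to the window of its midpoint, 7, 9 and 14 member calls changed sign for 46hr against 0hr, 60hr against 46hr and 60hr against 0hr, and the named window on scaffold 75 had -1.17 in place of -2.14. The windows called between testis and ovary numbered 5 by edgeR, 1 after scaling to equal covered length, and 0 to 7 with each list left out in turn. The member count stayed at 0 in each.

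Nothing states that the replicate numbers of the hour libraries pair them, or that a number marks the same read layout at each stage. Deviations of same-numbered libraries correlated at 0.1005, 0.170 and 0.0358 over 6929 windows, and with a replicate block edgeR called 55 members higher and 189 lower for 60hr against 0hr, 35 and 186 for 60hr against 46hr, and 67 and 145 for 46hr against 0hr. The gonad numbers had deviation correlations of 0.381, 0.0929 and 0.207 over 10721 windows, although each list correlated best with the list of its own number, and the replicate block called 1 window between testis and ovary and 0 members. Depth is known only within peaks, so signal below the authors' threshold was not analysed here.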
